A study of Cucumis sativus with 12 samples.

Results

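The comparison described here set cucumber leaves after 24 h of cold treatment against leaves after 12 h of the same treatment, by RNA-seq across all genes. It was chosen by sampling time alone, from the labels, and used 6 of the 12 libraries of the series, 3 at 12 h and 3 at 24 h. The plants were seedlings of the inbred line JinYan No. 4 with 3 true leaves, grown in a phytotron in a warmer regime with longer days, and then moved to 15 °C in the day and 6 °C at night, each for 12 h. All 6 libraries thus came from cold-treated plants of 1 line, and no warm-grown plants of the same age were sampled with them, so that 0 h, before the cold, and 3 h serve below only as reference levels. The labels do not state how many plants or leaves entered a library, or whether libraries came from separate plants, so that p-values measure the spread between these libraries only. Neither labels nor methods give the clock hour, light or temperature at each sampling, and their part cannot be told apart from that of the hours of cold. In bulk leaf RNA, fewer cells of a type and less RNA per cell cannot be told apart either.

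Cucumber is a chilling-sensitive species of tropical origin. In plants, cold is sensed within minutes to hours through calcium signals and transcription factors of the DREB1 (CBF) family, which switch on protective proteins such as dehydrins, while growth slows. Many leaf genes also cycle over the day under the circadian clock and light, among them those for light harvesting and for nitrate reduction, which draws its electrons from photosynthesis and sugars.

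Expression was given as FPKM, mapped fragments per unit of transcript length and of library size, and tested as log2(FPKM + 0.5). All fold changes below are differences on this log2 scale, 24 h minus 12 h, which understates changes of genes with low FPKM, and SE is the standard error of that difference with 3 libraries a group. Genes are called higher or lower at a limma adjusted p (Benjamini-Hochberg over all tested genes) under 0.05 and a difference above 1 or below -1, and "rose" and "fell" are used of called genes only. Where 0 members of a list were called in a direction, 0 passed with the unadjusted p and the same fold threshold too, and the number with an unadjusted p under 0.05 at any fold is given. Such numbers have a high background. At any fold, 5033 of all 17497 tested genes were higher and 4410 lower even at an adjusted p under 0.05. FPKM summed to 582011 to 586297 at 12 h and 574806 to 578677 at 24 h, and 18678 to 18850 genes were above 0 at 12 h against 19278 to 19551 at 24 h. All 19 leaf mesophyll markers, which are the 18 chlorophyll a-b binding proteins described below and the Rubisco small subunit, were tested. Of these 12 fell and 0 rose (18 lower and 0 higher at an unadjusted p under 0.05), with a median of -1.24, and their summed level was 66282 to 80447 FPKM at 12 h and 38445 to 53983 FPKM at 24 h. Neither of the 2 phloem lectins was, with summed levels of at most 0.0695 FPKM at 12 h and 0.72 FPKM at 24 h, and 12 of 19 xylem and lignified cell markers were tested with 0 called (5 higher and 1 lower at an unadjusted p under 0.05), at a summed 10.8 to 12.1 FPKM at 12 h and 14.2 to 18.2 FPKM at 24 h (1 was called higher without replicate 1 of 12 h or replicate 2 of 24 h). The part of these cells in the results was not tested.

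In each group 1 library lay closer to the other group than its fellows did. Replicate 2 of 24 h lay nearest to the 12 h libraries in 1209 of the 1481 genes called higher (81.6%) and in 524 of the 910 called lower (57.6%). On the first principal component of the 6 libraries, which held 79.5% of the variance, it scored 36.8 against 59.4 and 63.0 for its fellow replicates, and the 12 h libraries scored -43.6, -60.6 and -54.9. Without replicate 2 of 24 h, 1749 genes were called higher and 1060 lower. Replicate 1 of 12 h lay nearest to the 24 h libraries in 65.0% of the genes called higher, against 14.7% and 17.4% for its fellow replicates, and in 44.7% of those called lower, against 27.0% and 28.2%. Without replicate 1 of 12 h, 1676 genes were called higher and 949 lower.

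Over the 12 h between the samplings, 1481 of 17497 tested genes rose (8.46%) and 910 fell (5.2%). The counts in gene lists and families below are to be read beside these shares. The libraries of the groups did not overlap in 1460 of the genes that rose and 900 of those that fell, but they did not overlap in 56.5% of all tested genes either. Differences beyond 2 on the log2 scale were found for 452 of the genes that rose and for 78 of those that fell. The median difference of all tested genes was 0.03. For 582 of the genes that rose and 333 of those that fell, the annotation gives no informative description.

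To describe what came back and what was new, the 24 h mean of each called gene was set beside the earlier means on the same log2 scale. A gene counts as returned if its 24 h mean was within 1 of the 0 h mean, and as newly high or low if its 24 h mean was more than 1 above, or below, each of the 0, 3 and 12 h means. Of the 1481 genes that rose, 453 (30.6%) had returned, 535 (36.1%) were newly high, and 493 were neither. Of the 910 that fell, 376 (41.3%) had returned, 360 (39.6%) were newly low and 174 were neither. These shares are a description, since the 24 h libraries enter both the call and the class.

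The first hours of cold gave a reference that shares no library with this comparison. From 0 to 3 h, 1731 genes (9.89%) rose and 943 (5.39%) fell. Of the 1481 genes that rose from 12 to 24 h, 576 had also risen at 3 h, which is 38.9% of the later list and 33.3% of the earlier, and 85 (5.74%) had fallen. Of the 910 genes that fell from 12 to 24 h, 126 (13.8%) had risen at 3 h and 108 (11.9%) had fallen. Across the 17497 genes, which are not independent replicates, the differences correlated with r = 0.27, given as a description with no test. Read against the shares over all tested genes, 38.9% stood beside 9.89% for the rises and 11.9% beside 5.39% for the falls.

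The highest of the genes named by the rule was the dehydrin CsaV3_4G005460 (DHN1-like), a hydrophilic protein that protects membranes and proteins under water loss and cold. Its level was 2.95, 0.618 and 1.53 FPKM at 12 h and 224, 124 and 366 FPKM at 24 h, a difference of 6.77 (SE 0.44, limma, adjusted p = 7.41e-07). It had averaged 5.29 FPKM at 0 h and 58.2 FPKM at 3 h, so that its early rise was lost by 12 h and exceeded at 24 h in all 3 libraries. CsaV3_1G004730, a cation/H+ antiporter 15-like gene of a family that exchanges cations across endomembranes, was near 0 at 12 h (0.22, 0 and 0.0856 FPKM) and reached 56.4, 23.6 and 42.3 FPKM at 24 h, a difference of 6.03 (SE 0.28). CsaV3_3G032790, a methyltransferase of phosphatidylcholine synthesis, went from 1.66 to 2.78 FPKM to 119 to 163 FPKM, a difference of 5.76 (SE 0.20). The groups of these 3 genes did not overlap, which the rule for naming them required. The dehydrin and the antiporter were lowest in replicate 2 among the 24 h libraries, as were 9 of the 10 highest in the plot of named genes.

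**Figure D1:**
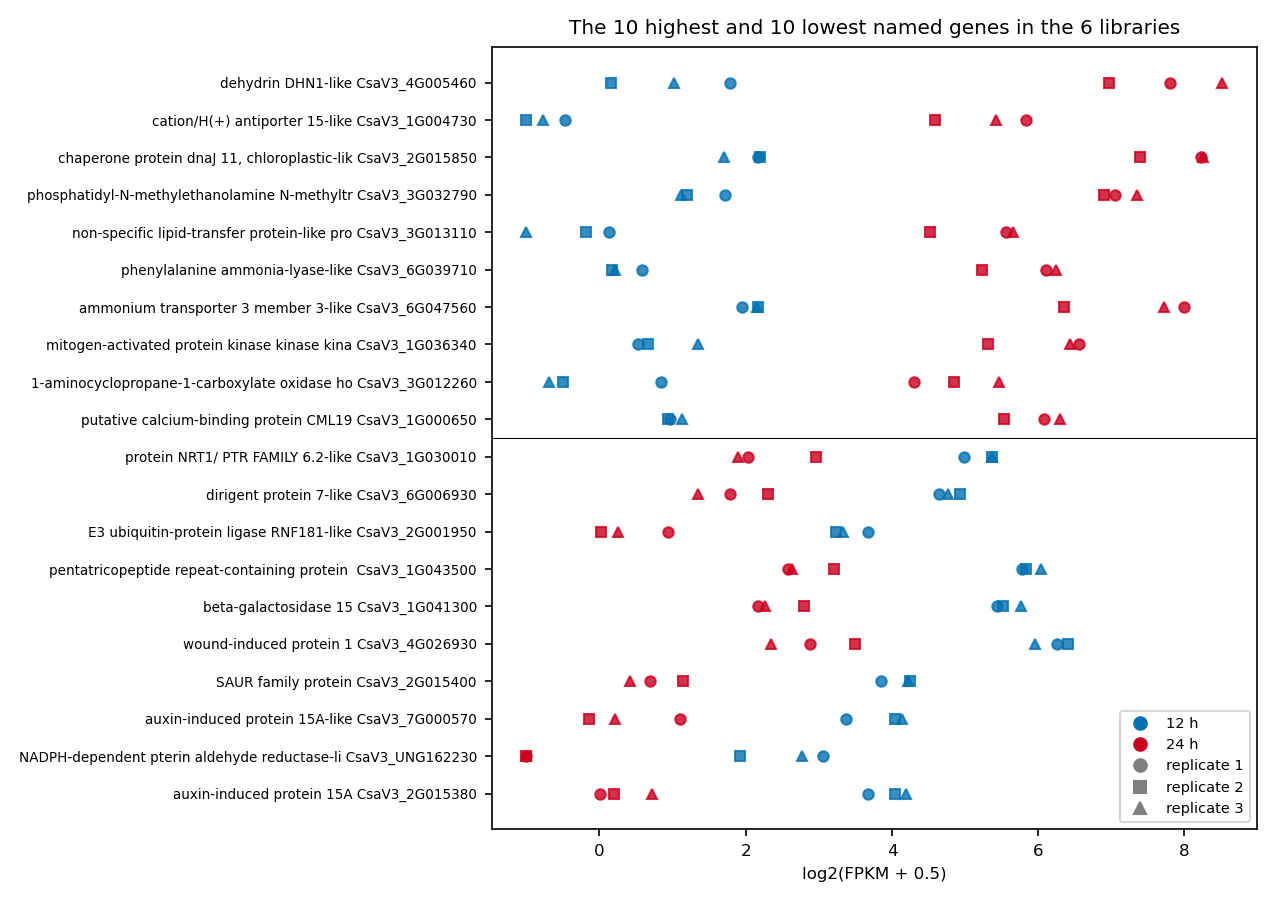
Values of log2(FPKM + 0.5) on the horizontal axis for the 10 named genes with the highest and the 10 with the lowest difference between 24 h (red) and 12 h (blue), 1 symbol per library, with circles, squares and triangles for replicates 1, 2 and 3. That the groups do not overlap was a condition for naming these 20 genes. The dehydrin at the top runs from 0.618 to 2.95 FPKM at 12 h and from 124 to 366 FPKM at 24 h.

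The chloroplast co-chaperone CsaV3_2G015850 (dnaJ 11-like) went another way. It averaged 48.8 FPKM at 0 h and fell to 4.22 FPKM at 3 h, stayed at 2.75 to 4.09 FPKM at 12 h, and rose to 300, 167 and 306 FPKM at 24 h, a difference of 5.94 (SE 0.21, adjusted p = 3.74e-09). The rise carried it well above its level before the cold in every library. CsaV3_1G036340, annotated as NPK1, a MAP kinase kinase kinase of stress signalling, rose from 0.938, 1.09 and 2.04 FPKM to 94.1, 39.1 and 86.0 FPKM. The lipid-transfer protein CsaV3_3G013110, which belongs to a family that carries lipids to the cell surface, rose from at most 0.599 FPKM to 22.5 to 49.8 FPKM. Both were newly high, having averaged 5.31 and 0.785 FPKM at 0 h.

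Genes of nitrate assimilation rose back to levels near those of 0 h. Nitrate reductase, the first and rate-limiting enzyme, a family grouped after values were seen, had 4 tested genes, and all 4 rose to a level within 1 of that at 0 h. The gene CsaV3_2G026770 was at 151, 152 and 163 FPKM at 12 h and at 1476, 951 and 1439 FPKM at 24 h, a difference of 3.02 (SE 0.15, adjusted p = 2.95e-08), with means of 1175 FPKM at 0 h and 1027 FPKM at 3 h. The trough was thus confined to 12 h among the times sampled. CsaV3_5G023360 had nearly the same values, the ratio of CsaV3_2G026770 to it lying between 0.952 and 1.09 in the 12 libraries, and the assignment of reads between such copies is uncertain, so the pair may not be independent. CsaV3_5G023370 rose from 84.2 to 93.3 FPKM to 645 to 792 FPKM, a difference of 2.98 (SE 0.08). The gene CsaV3_2G026780 varied most: it was at 11.9 to 13.9 FPKM at 12 h and at 604, 93.3 and 567 FPKM at 24 h, and at 0 h replicate 1 was at 68.1 FPKM against 433 and 409 FPKM in the others.

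The next steps of the pathway returned as well. Ferredoxin-nitrite reductase CsaV3_3G018610, which reduces nitrite to ammonium in the chloroplast, was at 40.3, 35.9 and 38.6 FPKM at 12 h and at 730, 345 and 611 FPKM at 24 h, a difference of 3.79 (SE 0.20, adjusted p = 6.22e-08), against 415 FPKM at 0 h. The uroporphyrinogen-III C-methyltransferase CsaV3_7G031380, which makes the siroheme cofactor of nitrite reductase, rose from 16.9 to 20.4 FPKM to 90.6 to 127 FPKM, against 180 FPKM at 0 h. Root-type ferredoxin-NADP reductase CsaV3_6G052330 and the chloroplast glucose-6-phosphate dehydrogenase CsaV3_4G029990, which can supply reductant where photosynthesis does not, rose by 1.20 (SE 0.17) and 1.81 (SE 0.23), and both had returned. Asparagine synthetase CsaV3_6G016090, which stores nitrogen in an amide and is known from Arabidopsis to be induced in the dark and at low sugar, was newly high, at 38.2, 24.0 and 51.5 FPKM against 0.811 to 1.86 FPKM at 12 h and 6.63 FPKM at 0 h. In the nitrogen metabolism list, 9 of 43 tested genes rose (20.9%) and 3 fell (6.98%), with a median of 0.12 beside 0.03 over all genes, and 6 of the 9 had returned. Among the 3 that fell was the carbonic anhydrase CsaV3_1G013850, which interconverts carbon dioxide and bicarbonate rather than nitrogen compounds, from 45.2 to 54.8 FPKM to 11.4 to 22.7 FPKM. The number that fell was 1 without replicate 3 of 12 h.

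**Figure D2:**
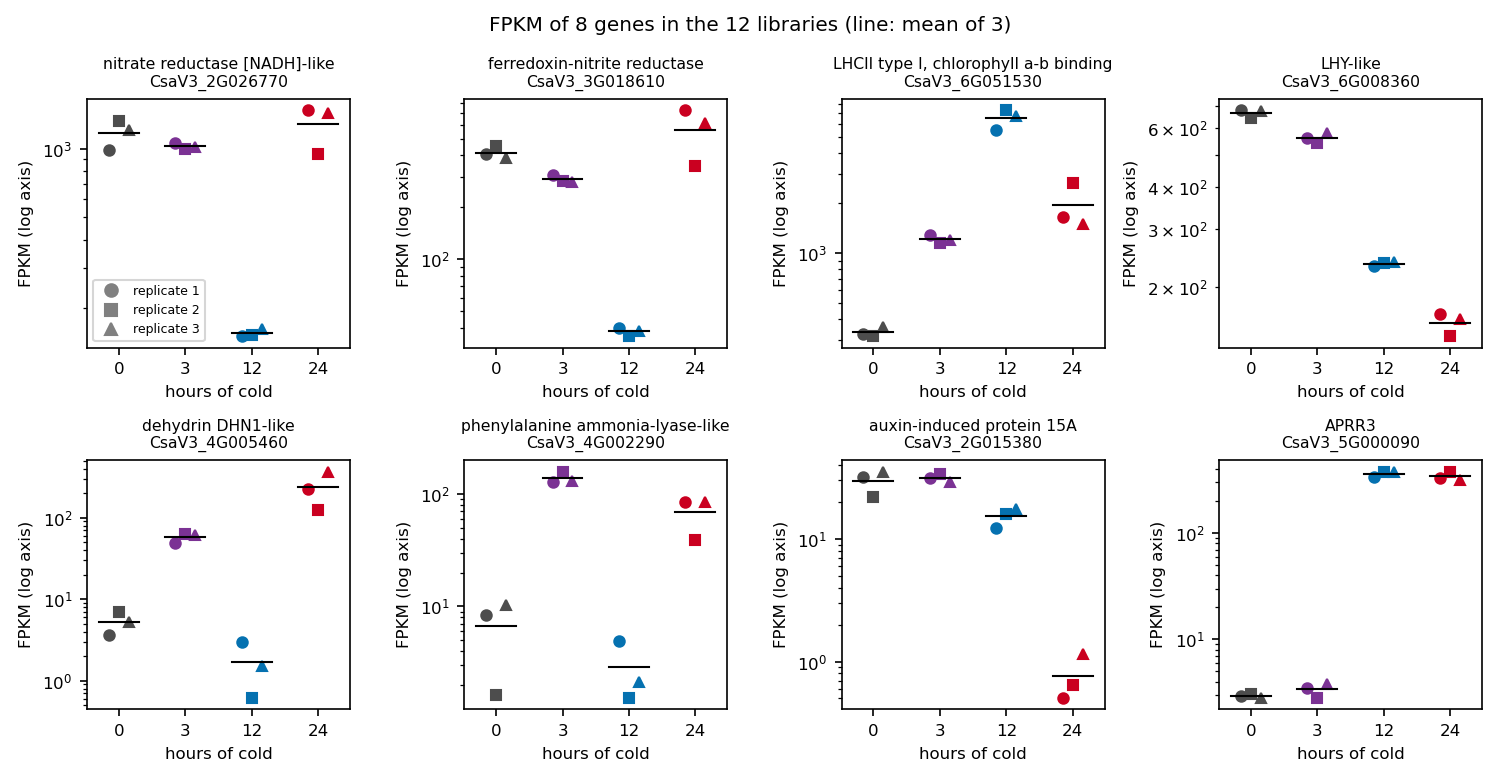
FPKM on a log axis against hours of cold for 8 genes in all 12 libraries, with circles, squares and triangles for replicates 1, 2 and 3 and a line at the mean of 3. Nitrate and nitrite reductase dip at 12 h and return, the LHCII gene peaks at 12 h, and the dehydrin and the phenylalanine ammonia-lyase are high at 3 and 24 h. The auxin-induced gene is lost at 24 h, and the clock genes LHY-like and APRR3 are away from their 0 h levels at both 12 and 24 h.

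Transporters of nitrogen moved in both directions. Among 50 tested nitrate (NRT1/PTR), peptide and ammonium transporters, a family assembled after values were seen, 9 rose and 9 fell. The ammonium transporter CsaV3_6G047560 (AMT3-3-like) was at 3.35, 4.01 and 3.97 FPKM at 12 h and at 255, 81.5 and 210 FPKM at 24 h, a difference of 5.26 (SE 0.32, adjusted p = 2.49e-07), and had been at 2.71 FPKM at 0 h. In contrast, the ammonium transporter CsaV3_2G010040 (AMT1-2-like) fell from 20.5 to 25.0 FPKM to 4.19 to 5.73 FPKM, from 84.1 FPKM at 0 h. Of the NRT1/PTR family, CsaV3_2G028250 (4.5-like) rose from 0.846 to 1.57 FPKM to 33.7 to 60.7 FPKM, and CsaV3_1G030010 (6.2-like) fell from 31.0 to 41.0 FPKM to 3.22 to 7.29 FPKM. The last gene was among the 10 lowest by the rule, and it was newly low after 39.9 FPKM at 0 h and 53.4 FPKM at 3 h.

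Light-harvesting genes, whose summed level was highest at 12 h, fell. Of the 18 chlorophyll a-b binding proteins, which carry the antenna pigments of both photosystems and were grouped after values were seen, 12 fell, 0 rose, and all 18 fitted differences were below 0, 17 of them with an unadjusted p under 0.05, with a median of -1.25. Their summed level was 39428, 49335 and 44843 FPKM at 12 h and 17734, 25318 and 17146 FPKM at 24 h, with means of 8449 FPKM at 0 h and 16241 FPKM at 3 h, so that the sum stayed above that before the cold. The LHCII type I gene CsaV3_6G051530 was at 5540, 7294 and 6713 FPKM at 12 h and at 1662, 2655 and 1507 FPKM at 24 h, a difference of -1.78 (SE 0.18, adjusted p = 6.65e-06), against 334 FPKM at 0 h. A photosystem I antenna gene, CsaV3_1G005600 (P4), fell from 22.1 to 34.3 FPKM to 3.67 to 5.06 FPKM and had returned to the 2.91 FPKM of 0 h. By contrast CsaV3_1G041230 was at 252 to 277 FPKM at 12 h and 243 to 262 FPKM at 24 h, a difference of -0.06 (SE 0.07, adjusted p = 0.453). It was chosen after its values were seen.

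In the photosystem and light-harvesting list as a whole, 18 of 83 tested genes fell (21.7%) and 2 rose, with a median of -0.60, and 11 of the 18 had returned to the 0 h level. Without replicate 2 of 24 h, 27 fell. Beyond the antenna, the photosystem I subunits CsaV3_3G013420 (subunit II) and CsaV3_1G046680 (subunit III) fell by 1.36 and 1.19 (SE 0.14 and 0.15). Both subunits dock the electron carriers of the reaction centre, and both returned, to 378 to 606 FPKM and 433 to 654 FPKM. Ferredoxin-1 CsaV3_3G013320, the electron carrier after photosystem I, fell from 120 to 131 FPKM to 41.4 to 63.3 FPKM and was newly low. One of the 2 genes that rose was the root-type ferredoxin-NADP reductase described above. Few genes of carbon fixation were called: 3 of 78 in the Calvin cycle list rose (3.85%) and 1 fell (1.28%). At an unadjusted p under 0.05 at any fold, 17 were higher and 25 lower. Those that rose included NADP-dependent malic enzymes, which the annotation places in this list though they are not enzymes of the cycle itself.

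In the lists of pigment synthesis, calls went in both directions. Of 60 tested carotenoid synthesis genes, 8 rose (13.3%, beside 8.46% over all genes) and 4 fell (6.67%, beside 5.2%), with a median of -0.09. Without replicate 2 of 12 h 4 of them rose, and without replicate 2 of 24 h 6 fell. Among the 8 were NCED3 and abscisic acid 8'-hydroxylase 1, which are counted again in the abscisic acid list below. Of 58 tested chlorophyll synthesis genes, 2 rose and 2 fell (3.45% each, under both shares over all genes), and without replicate 2 of 24 h 4 fell. The 2 that rose were the siroheme enzyme described above and the heme enzyme ferrochelatase-2. Geranylgeranyl diphosphate reductase CsaV3_1G002370, which makes the phytol tail of chlorophyll, fell from 410 to 522 FPKM to 179 to 247 FPKM. Ferrochelatase-2 CsaV3_2G025670, which inserts iron to make heme, rose from 7.99 to 17.1 FPKM to 43.1 to 63.2 FPKM. The transcription factor GLK2 (CsaV3_6G003320), which in Arabidopsis activates nuclear genes for light harvesting and chlorophyll, rose from 5.22 to 6.34 FPKM to 46.9 to 63.8 FPKM, a difference of 3.17 (SE 0.13, adjusted p = 7.61e-09), after 37.5 FPKM at 0 h and 106 FPKM at 3 h. It moved against the antenna genes in this comparison.

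Clock genes followed different courses. In 3 of them, chosen after their values were seen, the level at 24 h was nearer to that of 12 h than to that of 0 h. The morning gene LHY-like (CsaV3_6G008360), a MYB factor that peaks around dawn in other plants, was at 645 to 679 FPKM at 0 h, 233, 237 and 238 FPKM at 12 h, and 166, 143 and 161 FPKM at 24 h, a difference of -0.59 (SE 0.07) that did not reach the fold threshold. The evening genes APRR3 (CsaV3_5G000090), a pseudo-response regulator, and GIGANTEA-like (CsaV3_6G005020) were at 2.81 to 3.03 FPKM and 5.69 to 5.95 FPKM at 0 h. APRR3 was at 336 to 379 FPKM at 12 h and 319 to 374 FPKM at 24 h, with overlapping groups, and GIGANTEA-like at 295 to 309 FPKM and 220 to 247 FPKM. Neither was called.

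Of the 7 tested morning clock genes, 1 rose and 0 fell (2 lower at an unadjusted p under 0.05), and of the 10 evening genes 2 rose and 0 fell (4 lower at an unadjusted p under 0.05). REVEILLE 1-like (CsaV3_5G020580), a relative of LHY, was the morning gene that rose, from 20.3 to 23.7 FPKM to 52.2 to 72.7 FPKM, a difference of 1.53 (SE 0.11, adjusted p = 5.52e-07), and its 24 h mean was within 1 of the 0 h mean of 121 FPKM on the log2 scale. EARLY FLOWERING 3 (CsaV3_2G025750), part of the evening complex in Arabidopsis, rose from 11.2 to 14.7 FPKM to 25.7 to 29.2 FPKM, a difference of 1.10 (SE 0.10). The second GIGANTEA gene CsaV3_7G024490 was close to the fold threshold, with a difference of 1.03 (SE 0.13), and had returned, with means of 17.6 FPKM at 0 h, 7.43 FPKM at 12 h and 15.9 FPKM at 24 h. Its call was lost with a pseudocount of 1, median-ratio rescaling or quantile normalization, and without replicate 1 of 12 h or replicate 1 of 24 h. EARLY FLOWERING 3 was not called under quantile normalization either. The summed evening genes were at 784 to 849 FPKM at 12 h and 713 to 779 FPKM at 24 h, against 147 FPKM at 0 h. Among outputs linked to light and flowering, CONSTANS-LIKE 11 (CsaV3_2G035220) fell from 22.5 to 26.1 FPKM to 2.76 to 4.16 FPKM and had returned to the 6.04 FPKM of 0 h.

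Of 6 tested DREB genes, regulators of the cold response, 4 rose and 0 fell, and all 6 fitted differences were above 0, 5 of them with an unadjusted p under 0.05. DREB1A (CsaV3_3G016760), a CBF-type activator of cold-responsive genes, was at 0.115, 0.0811 and 0.0385 FPKM at 12 h and at 3.30, 2.92 and 8.37 FPKM at 24 h, a difference of 3.08 (SE 0.29, adjusted p = 4.58e-06), with means of 0.890 FPKM at 0 h and 5.83 FPKM at 3 h. DREB1B-like (CsaV3_5G005890) followed the same course, from at most 0.186 FPKM to 3.80 to 5.93 FPKM. These 2 genes were high at 3 and 24 h and low at 0 and 12 h, and were chosen after their values were seen. The DREB2A-like genes CsaV3_4G026790 and CsaV3_4G026910, which answer to drought and heat in Arabidopsis, climbed at every time instead, from 1.39 and 2.46 FPKM at 0 h to 37.0 to 48.1 FPKM and 43.1 to 54.8 FPKM at 24 h. Their differences from 12 h were 1.57 (SE 0.13) and 1.40 (SE 0.11). A further DREB2A-like gene, CsaV3_6G012590, did not climb, with means of 15.38, 12.96, 10.25 and 11.92 FPKM at 0, 3, 12 and 24 h. Its difference of 0.21 (SE 0.10) was not called, and its groups overlapped. It was chosen after its values were seen.

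Of 18 tested dehydrin and LEA genes, 5 rose and 0 fell (4 lower at an unadjusted p under 0.05), with a median of 0.17. Besides the dehydrin above, the LEA protein CsaV3_4G000870 (Lea5-like) rose from 1.03 to 5.94 FPKM to 13.8 to 26.6 FPKM, and the cold-regulated membrane protein CsaV3_2G014340 (COR413) from 20.6 to 32.4 FPKM to 50.7 to 67.0 FPKM. Heat shock proteins and factors had 14 of 59 members higher (23.7%) and 4 lower (6.78%), with a median of 0.36. Heat stress factor B-2b-like (CsaV3_3G016950), a repressor-class factor, was at 21.2, 13.9 and 15.2 FPKM at 12 h and at 145, 137 and 163 FPKM at 24 h, a difference of 3.13 (SE 0.14, adjusted p = 1.66e-08). It had been at 94.9 FPKM at 3 h. The small heat shock protein CsaV3_1G035830 (17.3 kDa class I) rose from 79.9 to 103 FPKM to 185 to 318 FPKM and was newly high, whereas heat stress factor C-1 (CsaV3_2G002270) fell from 64.5 to 99.3 FPKM to 24.0 to 42.9 FPKM, from 331 FPKM at 0 h.

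Of the hormone lists, the ethylene list had the most called genes, with a median of 0.47. It takes in transcription factors named ethylene-responsive, among them AP2-like and DREB-type members, so its calls do not measure a response to ethylene. Of its 94 tested genes 26 rose (27.7%, beside 8.46% over all genes) and 12 fell (12.8%, beside 5.2%), and 15 of the 26 were newly high. Ethylene-responsive factor 6 (CsaV3_3G002470) was at 26.1, 13.6 and 14.3 FPKM at 12 h and at 369, 304 and 333 FPKM at 24 h, a difference of 4.24 (SE 0.24, adjusted p = 1.02e-07), after 4.31 FPKM at 0 h and 103 FPKM at 3 h. ERF105 (CsaV3_5G004900), a cold-induced factor in Arabidopsis, rose from 6.51 to 10.7 FPKM to 144 to 152 FPKM, beside a 3 h mean of 144 FPKM. The enzyme of the last step of ethylene synthesis, the ACC oxidase 1-like gene CsaV3_6G037780, rose from 50.3 to 106 FPKM to 584 to 722 FPKM, and was newly high after 11.2 FPKM at 0 h and 325 FPKM at 3 h. Members that fell included ERF043-like (CsaV3_3G048560), from 9.69 to 13.7 FPKM to 0.988 to 1.999 FPKM, and TINY-like (CsaV3_2G030880), from 24.5 to 27.7 FPKM to 5.61 to 6.80 FPKM. Both are DREB-type relatives within the same superfamily.

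In other families of transcription factors most members were not called. Among WRKY factors 11 of 43 rose (25.6%) and 1 fell, with a median of 0.17. Among NAC factors 10 of 41 rose (24.4%) and 2 fell, with a median of 0.21, and among MYB factors 6 of 28 rose (21.4%) and 1 fell, with a median of 0.11. The count of 1 WRKY factor that fell became 2 when replicate 2 or 3 of 12 h, or replicate 1 or 3 of 24 h, was left out, and the 1 MYB factor was lost without replicate 2 or 3 of 12 h or replicate 2 of 24 h. WRKY 46 (CsaV3_3G008170) was at 33.3 to 51.8 FPKM at 12 h and 179 to 280 FPKM at 24 h, beside 277 FPKM at 3 h. NAC 29-like (CsaV3_5G032930), of a group tied to leaf ageing in Arabidopsis, rose from 2.91 to 7.14 FPKM to 36.2 to 91.8 FPKM and was newly high. The MYB44-like gene CsaV3_2G026410, a stress-induced regulator, was at 11.1, 11.4 and 11.4 FPKM at 12 h and at 71.3, 75.8 and 82.1 FPKM at 24 h, a difference of 2.70 (SE 0.08, adjusted p = 7.09e-10). It had stayed at 8.86 and 12.8 FPKM at 0 and 3 h, so that the rise was seen at 24 h only.

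Calcium signalling genes rose in 22 of 92 cases (23.9%) and fell in 4 (4.35%), with a median of 0.32. Among the calmodulin-like CML proteins, small calcium sensors grouped after values were seen, 10 of 26 rose and 0 fell (2 lower at an unadjusted p under 0.05). CML19 (CsaV3_1G000650) was at 1.45, 1.41 and 1.68 FPKM at 12 h and at 67.0, 45.8 and 78.1 FPKM at 24 h, a difference of 4.96 (SE 0.24, adjusted p = 2.60e-08), after 0.361 FPKM at 0 h and 31.8 FPKM at 3 h. The calcium-dependent protein kinases 32 (CsaV3_4G011890) and 26 (CsaV3_7G001990), which pass calcium signals on by phosphorylation, were newly high at 65.3 to 107 FPKM and 165 to 230 FPKM. The CBL-interacting kinases CsaV3_UNG100740 and CsaV3_UNG100750 (14-like), neighbours on an unplaced scaffold whose reads may be shared, ran the other way. They averaged 64.6 and 157 FPKM at 0 h, were at 5.95 to 7.77 FPKM and 12.2 to 13.1 FPKM at 12 h, and fell further to 0.323 to 2.54 FPKM and 2.39 to 5.004 FPKM.

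For abscisic acid, a hormone of water and cold stress, 11 of 85 tested genes rose (12.9%, beside 8.46% over all genes) and 3 fell (3.53%, beside 5.2%), with a median of 0.09. The number that fell was 6 without replicate 1 of 12 h or replicate 2 of 24 h, and 5 without replicate 2 of 12 h or replicate 3 of 24 h. The synthesis enzyme NCED3 (CsaV3_4G007760) rose from 1.63 to 4.09 FPKM to 10.7 to 21.2 FPKM, and so did the breakdown enzyme abscisic acid 8'-hydroxylase 1 (CsaV3_4G007140), from 1.84 to 4.06 FPKM to 10.4 to 16.7 FPKM. A further hydroxylase, CsaV3_7G008610 (4-like), fell from 4.28 to 8.03 FPKM to 1.05 to 1.63 FPKM. The protein phosphatases 2C CsaV3_1G036330 and CsaV3_7G007970, of a family that includes the co-receptors that restrain abscisic acid signalling, rose by 2.84 (SE 0.21) and 2.16 (SE 0.19). In the jasmonate list 8 of 33 rose (24.2%) and 3 fell (9.09%). TIFY 11A (CsaV3_3G030830), a JAZ repressor of jasmonate responses, went from 7.66 to 8.38 FPKM to 65.2 to 84.0 FPKM, a difference of 3.11 (SE 0.09, adjusted p = 7.09e-10), beside 70.7 FPKM at 3 h.

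Phenylpropanoid metabolism, which supplies lignin, flavonoids and other phenolics, had 35 of 153 tested genes higher (22.9%) and 11 lower (7.19%), with a median of 0.12. At its entry stands phenylalanine ammonia-lyase, a family grouped after values were seen, with 15 tested genes, of which 9 rose and 1 fell. Their summed level was 83.7, 88.8 and 81.3 FPKM at 12 h and 338, 236 and 361 FPKM at 24 h, against 86.5 FPKM at 0 h and 635 FPKM at 3 h, so that the rise was the second in the time course, after that at 3 h, where 10 of the 15 genes had risen. CsaV3_6G039710 was at 0.989, 0.627 and 0.658 FPKM at 12 h and at 68.3, 36.9 and 75.1 FPKM at 24 h, a difference of 5.54 (SE 0.56, adjusted p = 1.75e-05). CsaV3_4G002290 was at 4.93, 1.55 and 2.14 FPKM at 12 h and at 84.1, 38.6 and 85.2 FPKM at 24 h, a difference of 4.41 (SE 0.58). Replicate 2 was the lowest 24 h library for both, and replicate 2 of 0 h was low as well, at 0.166 FPKM against 2.65 and 3.55 FPKM for the first gene. The neighbouring gene CsaV3_6G039700, with 171 FPKM at 3 h, was at 15.1 to 18.4 FPKM at 12 h and 22.8 to 24.2 FPKM at 24 h and was not called. It was chosen after its values were seen, and reads of such close relatives may be shared.

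**Figure D3:**
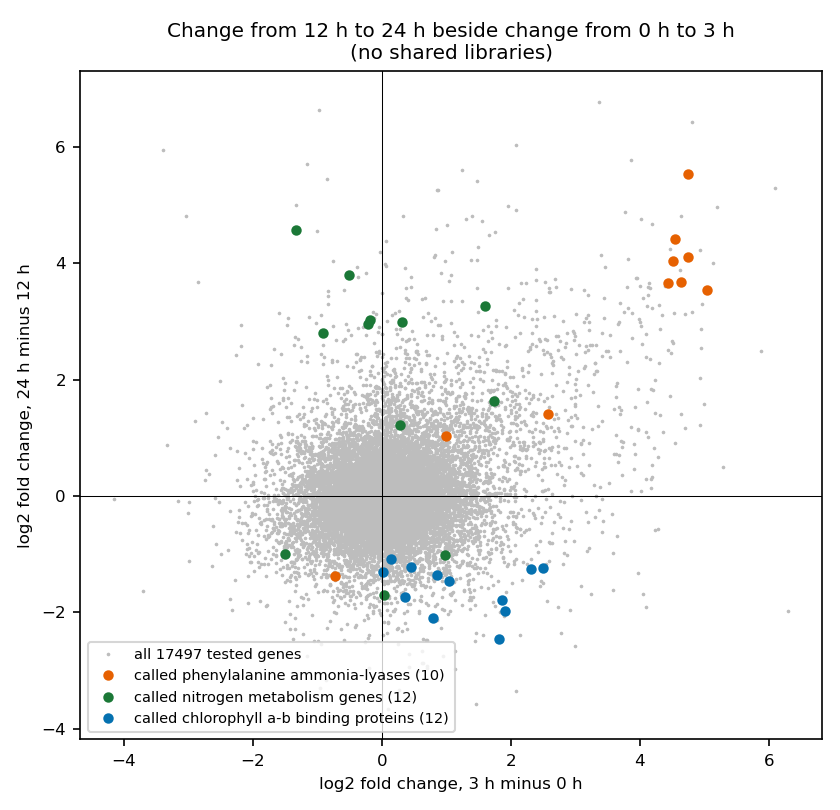
Each grey point is 1 of the 17497 tested genes, with the log2 difference of 3 h minus 0 h on the horizontal axis and of 24 h minus 12 h on the vertical axis, which use different libraries. Called phenylalanine ammonia-lyases (orange) lie mostly high on both axes, called chlorophyll a-b binding proteins (blue) at or above 0 at 3 h and below -1 at 24 h, and the called nitrate assimilation genes (green, among the 12 nitrogen metabolism genes) near or below 0 at 3 h and high at 24 h.

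Further steps of the pathway split. Cinnamoyl-CoA reductase 1 (CsaV3_5G027330), the first enzyme given over to lignin, rose from 1.83 to 3.78 FPKM to 16.4 to 42.1 FPKM. Its relative CsaV3_7G031910 fell from 18.8 to 22.6 FPKM to 4.29 to 5.59 FPKM. Cytochrome P450 84A1 (CsaV3_6G046880), the ferulate 5-hydroxylase type that leads to syringyl lignin, fell from 143 to 154 FPKM to 47.3 to 64.8 FPKM, but stood well above its 8.97 FPKM of 0 h. The 4-coumarate-CoA ligase CsaV3_2G036090 and the cinnamyl alcohol dehydrogenase CsaV3_3G046050 fell by 1.64 (SE 0.22) and 1.35 (SE 0.15) and also remained above 0 h. For flavonoids, 7 of 62 genes rose and 11 fell, among them the malonyltransferase CsaV3_1G033850, which decorates anthocyanins and fell from 44.1 to 58.7 FPKM to 13.95 to 18.7 FPKM.

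In the photorespiration and glyoxylate list 6 of 88 tested genes rose (6.82%, beside 8.46% over all genes) and 1 fell, with a median of 0.01, and 0 fell without replicate 1 or 3 of 24 h. The 2 highest of them belong to the glyoxylate cycle, which turns acetyl units from fatty acids into organic acids. Malate synthase CsaV3_1G009520 was at 2.02, 2.16 and 1.84 FPKM at 12 h and at 71.5, 35.8 and 65.7 FPKM at 24 h, a difference of 4.48 (SE 0.20, adjusted p = 2.01e-08), against 9.81 FPKM at 0 h and 32.1 FPKM at 3 h. Isocitrate lyase CsaV3_2G035120, its partner enzyme, rose from 0.670 to 0.978 FPKM to 12.7 to 16.9 FPKM and was newly high. Enzymes of peroxisomal beta-oxidation, grouped after values were seen, rose in 5 of 9 cases and fell in 0, also at an unadjusted p under 0.05, and 4 of the 5 had returned. One was the thiolase CsaV3_2G011380, which releases the acetyl units, from 16.8 to 22.6 FPKM to 40.9 to 70.4 FPKM.

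Sugar-related genes were mixed. Galactinol synthase makes the donor for raffinose, a protective sugar of cold leaves. CsaV3_1G015730 (galactinol synthase 2-like) rose from 1.9 to 7.42 FPKM to 24.4 to 94.2 FPKM, a difference of 3.61 (SE 0.48, adjusted p = 0.000115), beside 55.3 FPKM at 3 h. CsaV3_5G031520 (galactinol synthase 1-like) fell from 8.98 to 13.7 FPKM to 1.39 to 5.16 FPKM, and of the 10 genes of the list 1 rose and 3 fell. Among 32 sugar transporters 6 rose (18.8%) and 5 fell (15.6%). The hexose carrier CsaV3_6G038210 (sugar transport protein 13-like), linked to sugar recovery under stress in Arabidopsis, was newly high at 24.1 to 55.0 FPKM after 2.82 to 7.64 FPKM. The polyol transporter 5-like gene CsaV3_7G023400 fell from 26.1 to 30.2 FPKM to 7.51 to 9.36 FPKM.

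Glutathione S-transferases, the family the study set out to describe, detoxify by joining glutathione to other molecules. Of 46 genes 40 were tested, 6 rose (15%, beside 8.46% over all genes) and 2 fell (5%, beside 5.2%), with a median of 0.15. The tau-class CsGSTU21 (CsaV3_4G007700) was at 11.6, 5.58 and 6.32 FPKM at 12 h and at 37.5, 15.8 and 37.9 FPKM at 24 h, a difference of 1.86 (SE 0.31, adjusted p = 0.000484), and had returned to its 0 h mean of 50.5 FPKM within 1 on the log2 scale. CsGSTU18 (CsaV3_1G005420) rose from 6.51 to 10.9 FPKM to 25.1 to 41.1 FPKM and was newly high, as was CsGSTU10 (CsaV3_1G005450), from at most 0.163 FPKM to 2.72 to 3.56 FPKM. The phi-class CsGSTF2 (CsaV3_7G029060) rose by 1.42 (SE 0.19). CsGHR1 (CsaV3_1G046320) and CsGSTU13 (CsaV3_1G004150) were called at 1.01 (SE 0.23) and 1.07 (SE 0.25). Both of these calls were lost without replicate 2 of 12 h, replicate 1 of 24 h or replicate 3 of 24 h, and under quantile normalization. That of CsGHR1 was lost with median-ratio rescaling too.

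The phi-class CsGSTF4 (CsaV3_7G029040) was at 77.4, 79.7 and 85.5 FPKM at 12 h and at 23.0, 28.5 and 21.9 FPKM at 24 h, a difference of -1.71 (SE 0.09, adjusted p = 4.37e-08), and CsGHR4 (CsaV3_1G004390) fell by 1.07 (SE 0.10). Both had returned, to 0 h means of 47.2 and 8.30 FPKM within 1 on the log2 scale. The abundant CsGSTU11 (CsaV3_3G011460), chosen after its values were seen, was at 194 to 334 FPKM at 12 h and 222 to 273 FPKM at 24 h, a difference of -0.16 (SE 0.32) with overlapping groups, after 22.1 FPKM at 0 h. CsGSTU9 (CsaV3_1G005440) was at 89.4 to 171 FPKM and 195 to 295 FPKM and was not called at 0.92 (SE 0.24), though it was when replicate 1 of 12 h or replicate 2 of 24 h was left out. Among 30 tested antioxidant enzymes 1 rose and 1 fell, both of them annotated as catalases. The one that rose was CsaV3_4G037260 (catalase isozyme 1-like), with a difference of 1.12 (limma, adjusted p = 0.000348). It was named after its values were seen. The one that fell was catalase isozyme 1 (CsaV3_4G037250), which breaks down hydrogen peroxide in peroxisomes, from 1245 to 1455 FPKM to 577 to 808 FPKM, a difference of -1.02 (SE 0.11), from 1930 FPKM at 0 h. This call was lost without replicate 3 of 12 h, replicate 1 of 24 h or replicate 3 of 24 h, and under quantile normalization.

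The 2 lowest named genes with a level above 0 at 24 h were small auxin-induced genes. The auxin-induced 15A gene CsaV3_2G015380 was at 12.2, 15.9 and 17.7 FPKM at 12 h and at 0.506, 0.646 and 1.14 FPKM at 24 h, a difference of -3.66 (SE 0.21, adjusted p = 9.02e-08), after 29.8 FPKM at 0 h and 31.4 FPKM at 3 h. CsaV3_7G000570 (15A-like) went from 9.81 to 17.2 FPKM to 0.401 to 1.65 FPKM. Of 25 tested SAUR and auxin-induced 15A or X10A genes, which promote cell expansion and were grouped after values were seen, 9 fell and 5 rose, with a median of -0.67. The SAUR gene CsaV3_2G015400 stood at 13.9 to 18.4 FPKM at 12 h and returned to 0.835 to 1.71 FPKM, whereas CsaV3_2G015380 was newly low. In the whole auxin list 12 of 85 rose (14.1%) and 11 fell (12.9%), with a median of -0.14. The auxin-induced gene ARG2 (CsaV3_7G029330), of very high level, rose from 3267 to 3628 FPKM to 6284 to 8358 FPKM.

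One gene was listed at 0 throughout 24 h. CsaV3_UNG162230, annotated as an NADPH-dependent pterin aldehyde reductase, was at 7.80, 3.28 and 6.32 FPKM at 12 h and stood at 0 in all 3 libraries of 24 h, as in those of 0 h. No fold is given against libraries listed at 0. Also among the 10 lowest, beta-galactosidase 15 (CsaV3_1G041300), a wall enzyme, fell from 42.7 to 53.7 FPKM to 4.001 to 6.42 FPKM, and wound-induced protein 1 (CsaV3_4G026930) from 61.8 to 84.3 FPKM to 4.56 to 10.8 FPKM. The cytokinin response regulator ARR9-like (CsaV3_5G024480), a feedback repressor, returned to 2.45 to 5.94 FPKM after 21.4 to 25.5 FPKM at 12 h.

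Cell wall genes moved both ways, with 15 of 107 tested members higher (14%) and 13 lower (12.1%), and 20 lower without replicate 2 of 24 h. The xyloglucan endotransglucosylases CsaV3_1G031420 and CsaV3_1G031460 (both 23-like), which cut and rejoin wall polymers, stood at 0.802 to 2.12 FPKM and 4.65 to 6.63 FPKM at 12 h and at 51.0 to 65.7 FPKM and 139 to 188 FPKM at 24 h, with differences of 4.81 and 4.68 (SE 0.23 for both). These close relatives had also risen at 3 h. The expansins A8-like (CsaV3_5G010900) and A5 (CsaV3_5G038140), which loosen walls for growth, fell by 1.57 (SE 0.13) and 1.49 (SE 0.16), and endoglucanase 6-like (CsaV3_4G006540) fell from 112 to 153 FPKM to 25.7 to 51.7 FPKM. Of 22 aquaporins, which conduct water or small solutes, 3 fell and 0 rose (3 higher at an unadjusted p under 0.05), and 5 fell without replicate 2 of 24 h. They included NIP2-1-like (CsaV3_3G041460), from 19.8 to 22.9 FPKM to 5.69 to 7.94 FPKM. Of 22 histones, a family chosen after values were seen, 5 fell and 0 rose (1 higher at an unadjusted p under 0.05). Of 85 tested cell cycle genes 5 rose (5.88%, beside 8.46% over all genes) and 2 fell (2.35%, beside 5.2%), with a median of 0.03. The 2 that fell were the cyclins D1-1 (CsaV3_5G031850) and D6-1-like (CsaV3_6G012330), which drive entry into the cell cycle, by 1.52 (SE 0.10) and 1.53 (SE 0.17).

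Of 156 tested cytosolic ribosomal protein genes, 0 rose and 2 fell past the fold threshold, yet the median was 0.35 and 132 of the fitted differences were above 0, 106 of them at an unadjusted p under 0.05. Their summed level was 21916 to 23727 FPKM at 12 h and 27699 to 31560 FPKM at 24 h, and the groups did not overlap. Over all 17497 tested genes, 5033 were higher and 4410 lower at an adjusted p under 0.05 at any fold. Other lists of translation had medians near the 0.03 over all genes, at 0.05 for 77 plastid and mitochondrial ribosomal proteins, 0.01 for 102 ribosome biogenesis genes and 0.02 for 86 genes of aminoacyl-tRNA synthesis. Among the cytosolic ribosomal proteins 2 genes rose without replicate 2 of 24 h, and without replicate 2 or 3 of 12 h, or replicate 3 of 24 h, 1 fell. The gene CsaV3_5G029770 (L3-2), a core protein of the large subunit, fell against this drift from 69.2 to 73.3 FPKM to 19.5 to 26.0 FPKM. In the proteasome list 0 of 69 rose (41 higher at an unadjusted p under 0.05) and 3 fell, and in the spliceosome list 7 of 208 rose and 4 fell. The number that fell was 1 for the proteasome list without replicate 2 of 12 h and 2 for the spliceosome list without replicate 1 of 24 h. These lists also hold genes of other functions. Called lower in the proteasome list were the BTB/POZ proteins CsaV3_2G032490 and CsaV3_2G016510, which are not annotated as proteasome subunits. Called higher in the spliceosome list was the ethylene-responsive factor ERF113 (CsaV3_6G007740), counted in the ethylene list too. The aminoacyl-tRNA list likewise holds dirigent proteins, such as CsaV3_6G006930.

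**Figure D4:**
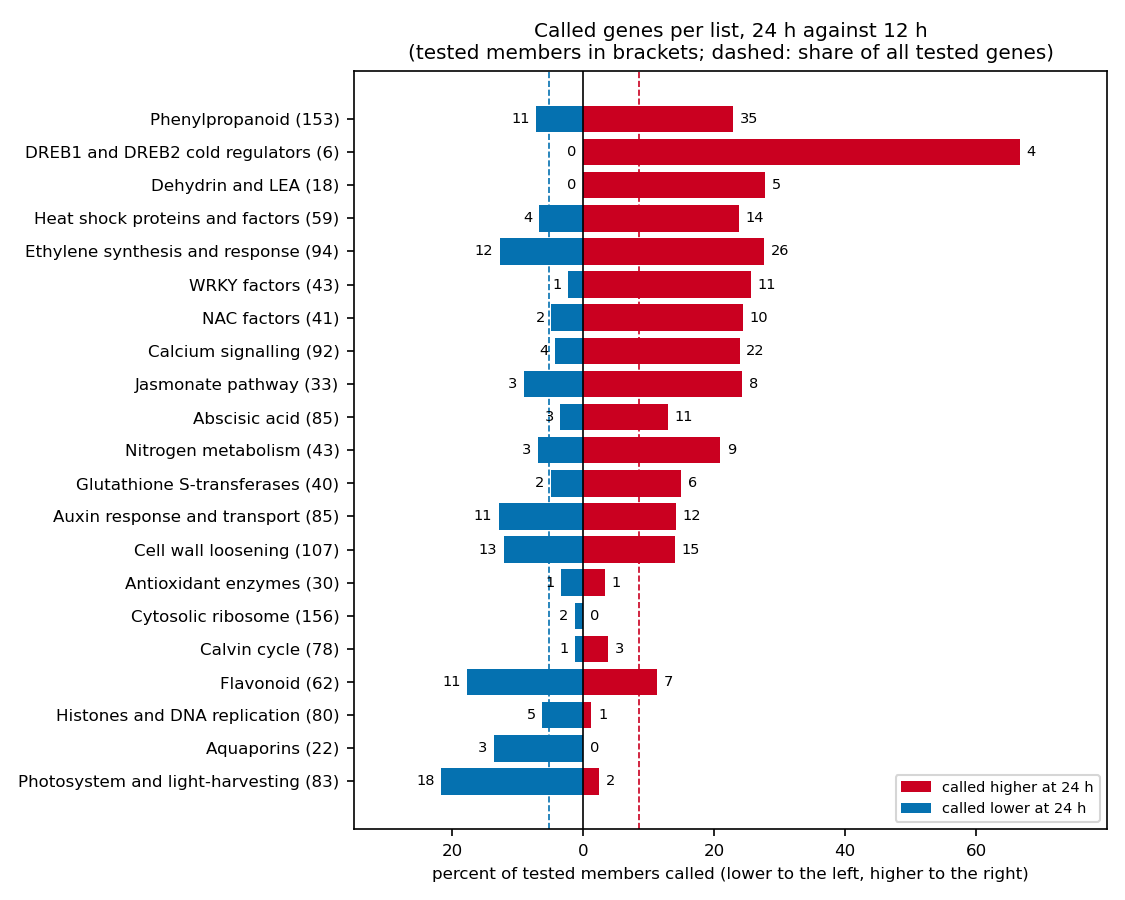
Percent of the tested members of 21 gene lists called higher (red, to the right of 0) or lower (blue, to the left) at 24 h than at 12 h, with the number of genes at each bar, the number tested in brackets and dashed lines at the shares over all tested genes (8.46% and 5.2%). DREB genes (4 of 6 higher) and the photosystem list (18 of 83 lower) reach furthest beyond these lines, and ribosomal, Calvin cycle and antioxidant genes stay within them on both sides.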

How the data were processed

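Leaf RNA of 12 libraries was sequenced on an Illumina platform. The authors removed low-quality and ambiguous bases, mapped the reads with HISAT2 to version 3 of the Chinese Long cucumber genome, and deposited FPKM values for 24317 genes. The submitters' processing notes name cutadapt 1.9 and FastQC. The FPKM program and the handling of reads that map to several genes, both not given in the sources used here, make near-identical genes uncertain. The deposited value 0.0001, which stands for 0, was set to 0. Columns of fold changes, p-values and q-values of the authors' own comparisons, found beside FPKM, were not used.

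The 17497 genes that reached 0.5 FPKM in 3 or more of the 12 libraries were fitted as log2(FPKM + 0.5) by limma 3.58.1 (R 4.3.3; lmFit and a robust eBayes with an intensity trend), in 1 model of 4 times over 12 libraries and with no replicate block, so that all times share an estimate of the spread. The fit was tested on simulated data. Summaries used Python 3.11.15 with pandas 2.3.3 and numpy 2.4.6, and plots matplotlib 3.10.9. The number of reads per library is unknown. Ratios of values under 0.1 FPKM to those of 12 h replicate 1 gave relative depths of 0.939 and 0.991 for its fellow replicates and 0.955, 1.26 and 1.31 at 24 h, each from 16 to 26 ratios that lay together among 195 to 229, and FPKM was not turned back into reads. No pair of the 6 libraries shared identical values above 0 (0%). Alternatives were other pseudocounts, filters, scalings, thresholds and samples, and leaving out each library.

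The 49 gene lists came from the annotation and, like the comparison, were chosen with earlier results of these data known; a further 19 families were grouped after values were seen. Named genes were the 10 highest and 10 lowest differences among called genes that have a description, groups that do not overlap and 5 FPKM or more in a group; the 5 highest or lowest that returned or were new; and the 2 highest and 2 lowest called members of each list with at least 5 FPKM in a group. The text leaves out some of these. The catalase gene CsaV3_4G037260 is named outside this rule, after its values were seen, and is not counted among the named genes below. Named outside this rule, after their values were seen, were CsaV3_1G001640, CsaV3_1G004150, CsaV3_1G005440, CsaV3_1G005450, CsaV3_1G035830, CsaV3_1G041230, CsaV3_1G046320, CsaV3_1G046680, CsaV3_2G002890, CsaV3_2G010040, CsaV3_2G011380, CsaV3_2G014340, CsaV3_2G028250, CsaV3_2G036090, CsaV3_3G000740, CsaV3_3G011460, CsaV3_3G013320, CsaV3_3G013420, CsaV3_3G016760, CsaV3_3G046050, CsaV3_4G004750, CsaV3_4G025160, CsaV3_5G000090, CsaV3_5G004900, CsaV3_5G005890, CsaV3_5G010900, CsaV3_5G023360, CsaV3_5G023370, CsaV3_5G027330, CsaV3_5G031700, CsaV3_5G038140, CsaV3_6G005020, CsaV3_6G008360, CsaV3_6G012590, CsaV3_6G016090, CsaV3_6G037780, CsaV3_6G039700, CsaV3_6G046880, CsaV3_6G051530, CsaV3_7G001990, CsaV3_7G002480, CsaV3_7G029060, CsaV3_7G029330, CsaV3_UNG144090 and CsaV3_UNG213460.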

Additional observations from a re-analysis of the deposited data

How the results depend on the processing

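Under other pseudocounts, filters, scalings and samples, 1238 to 1806 genes were higher and 680 to 1315 lower at 24 h than at 12 h (1481 and 910 as reported), all within 1.5 times. Leaving out 1 library gave 1325 to 1749 higher and 863 to 1060 lower, and for 3 h against 0 h 1670 to 1788 higher and 925 to 986 lower. The share of higher among called genes was 61.9% and lowest with quantile normalization (1338 higher, 1104 lower). Counts depended on the fold threshold: without one, 5033 were higher and 4410 lower at 24 h than at 12 h, and 5326 and 4587 at 3 h than at 0 h, and beyond 2 on the log2 scale 452 and 78, and 515 and 75. The unadjusted p with the same fold threshold gave 1487 and 913. Of the recomputed counts in lists 1266 stayed within 1.5 times and 106 did not, 19 of them with a pseudocount of 0.1 and 15 with a pseudocount of 1, mostly lists with few calls. Of the named genes 24 crossed the threshold in some setting and none changed sign. EARLY FLOWERING 3 lost its call only with quantile normalization. The cause of these changes was not tested.

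Groups share replicate numbers in the labels, but nothing there says that a number pairs libraries. The deviations of same-numbered libraries from their group means correlated at 0.11, 0.16 and -0.04, and those of different-numbered libraries at -0.21 to 0.14. Since the deviations of the 3 libraries of a group sum to 0, these values cannot settle whether numbers pair libraries. The numbers were not taken as pairs, for want of a label that says so. With the replicate block, 1475 genes were higher and 907 lower at 24 h than at 12 h, and 1727 and 944 at 3 h than at 0 h. Low values limit precision: 49 genes called higher and 24 called lower averaged under 1 FPKM at both times, and with 3 libraries a group a single one can decide calls near the fold threshold.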

Other observations

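Of 6 genes annotated as trehalose-phosphate synthases, grouped after values were seen like the phosphatases, 3 rose and 0 fell (2 lower at an unadjusted p under 0.05). The name is that of the enzyme that makes the sugar signal trehalose 6-phosphate. Those that rose are annotated as synthases 7, 9 and 10, and whether they make this sugar was not tested. The synthase CsaV3_1G001640 was at 4.07, 3.81 and 3.19 FPKM at 12 h and at 33.6, 18.2 and 30.7 FPKM at 24 h, a difference of 2.70 (SE 0.19, limma, adjusted p = 5.43e-07), and CsaV3_5G031700 rose from 10.9 to 17.1 FPKM to 52.2 to 89.6 FPKM. Both were newly high. Of the 8 tested phosphatases, which remove the phosphate, 4 fell and 1 rose, among them CsaV3_4G004750 from 39.1 to 45.5 FPKM to 15.9 to 17.5 FPKM. CsaV3_UNG144090 and CsaV3_UNG213460 ran in near-constant ratio to it (1.45 to 1.74 and 0.54 to 0.623 over 12 libraries) and may share its reads. SPX and PHO1 proteins, sensors and exporters of phosphate, rose in 4 of 13 cases and fell in 0, also at an unadjusted p under 0.05, for example CsaV3_2G002890 (SPX domain protein 1) from 12.9 to 19.6 FPKM to 98.4 to 108 FPKM, beside 341 FPKM at 3 h.

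Transcripts annotated to the mitochondrial genome, at low levels, rose in 8 of 31 cases and fell in 0, also at an unadjusted p under 0.05, and 12 rose without replicate 2 of 24 h. Their summed level was 28.6, 33.3 and 31.5 FPKM at 12 h and 82.6, 50.8 and 80.6 FPKM at 24 h, whereas 0 of 10 plastid-genome transcripts were called by limma in either direction (0 higher and 1 lower at an unadjusted p under 0.05). Among pathogenesis-related proteins the thaumatin-like gene CsaV3_4G025160 was newly high, at 15.7 to 27.6 FPKM after at most 0.528 FPKM at 12 h, while CsaV3_3G000740 (thaumatin-like protein 1) fell from 20.5 to 22.8 FPKM to 5.25 to 6.14 FPKM. Cytochrome P450 genes, enzymes of specialised and hormone metabolism, fell in 25 of 81 cases (30.9%) and rose in 8 (9.88%), and 12 of the 25 had returned. Subtilisin-like proteases had 6 of 21 lower and 0 higher (6 higher at an unadjusted p under 0.05), UDP-glycosyltransferases 6 of 26 lower and 1 higher, and fasciclin-like arabinogalactan proteins of the cell surface 5 of 12 lower and 1 higher. CsaV3_7G002480, of the last family, returned to 14.7 to 26.5 FPKM after 64.4 to 79.5 FPKM. These families were chosen after values were seen.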
